A study of Mus musculus with 6 samples.

Results

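A set of 10 genes of polyamine metabolism were followed in mouse leukemias with and without Rpl22, a protein of the large ribosomal subunit. They were taken by name (Odc1, Amd1, Srm, Sms, Oaz1, Oaz2, Azin1, Sat1, Smox and Paox), as 10 of 51497 annotated genes for which transcripts were summed, and all 10 were among the 16656 genes with enough reads to be tested. RNA came from CD11b+Gr1+ splenocytes of Mll-AF9 mice, 3 libraries labelled Rpl22+/+ and 3 labelled Rpl22-/-, the latter bred from Rpl22-deficient mice. Every mouse thus carried the knockin Mll-AF9 fusion oncogene, which drives acute myeloid leukemia, and no treatment is given. The study's methods describe the mice of its experiments as young adults on a C57BL/6 background, and the labels give no age for these libraries. Replicates are separate libraries. The study names a single mouse of each genotype as the source of the leukemias it sequenced, so a genotype may be represented by 1 animal. The errors and p-values measure the spread between libraries, which may be technical.

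Polyamines (putrescine, spermidine and spermine) are small cations that bind RNA and are needed by dividing cells. Ornithine decarboxylase makes putrescine, and 2 synthases add aminopropyl groups, donated by decarboxylated S-adenosylmethionine, to give spermidine and then spermine. Antizymes bind ornithine decarboxylase and send it to the proteasome, and antizyme inhibitor binds antizymes in its place. Breakdown runs through an acetyltransferase and oxidases that return spermine and spermidine towards putrescine. Much of this control acts on splicing, translation and protein turnover, which RNA levels do not measure. The 10 members were chosen with results of this comparison known, and their values are therefore descriptions with no test of their own.

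Rpl22 itself, not a member, stood at 148, 235 and 152 CPM in Rpl22+/+ and at 58.3, 89.9 and 73.5 CPM in Rpl22-/-, where CPM is the read count scaled to a common library total, with library sizes adjusted by the TMM method of edgeR. The order of the genotypes followed the labels, although reads of the gene remained in the Rpl22-/- libraries. The libraries held 35828500 to 102866127 estimated reads. Log CPM correlated at 0.926 to 0.992 within Rpl22+/+, where replicate 2 stood apart, and at 0.971 to 0.984 within Rpl22-/-. Of 5 genes listed for the sort 2 fell and 3 did not pass, with summed levels that overlapped (3415 to 4272 against 2963 to 3591 CPM). Itgam (CD11b) averaged 1928 CPM against 948 CPM in the Rpl22-/- libraries (log2 fold change -1.02, edgeR adjusted p = 0.00482), and Ly6g (part of the Gr1 antigen) 160 CPM against 14.2 CPM (log2 fold change -3.49, edgeR adjusted p = 9.70e-05). Ly6c1, Ly6c2 (which Gr1 antibodies can also bind) and Csf3r had fitted values of 0.40, 0.51 and 0.47. Primary granule genes rose (5 of 5, summed level 2389 to 4095 against 22478 to 27374 CPM) and secondary and tertiary granule genes fell (6 of 6, 41839 to 57082 against 11555 to 15839 CPM). Erythroid genes were higher in 4 of the 5 tested (26.7 to 42.3 against 199 to 355 CPM, with Klf1 at 0 in 2 of the Rpl22-/- libraries), and T cell genes were lower in 5 of 5 (36.6 to 50.3 against 14.8 to 18.2 CPM). B cell genes summed to 567 to 721 against 359 to 551 CPM, and macrophage genes to 492 to 892 against 239 to 370 CPM, where Adgre1 and Csf1r fell but the scarce C1qa and Marco rose. Platelet genes (3.17 to 5.13 against 3.97 to 4.62 CPM, with Pf4 and Ppbp at 0 in 3 libraries each) and stromal genes (5.61 to 6.44 against 2.97 to 4.86 CPM, where Kdr passed as higher and Pdgfrb, at 0 in every Rpl22-/- library, as lower) were scarce. The 8 proliferation genes did not pass (1523 to 2085 against 1771 to 2404 CPM). Several of these marker sums differed between the same libraries as the polyamine values, and their part in those values was not tested. In such bulk RNA, fewer cells of a type and less RNA per cell cannot be told apart.

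Of the 10 polyamine genes 3 passed the test across all genes in the direction of higher reads in Rpl22-/- (Srm, Sms and Paox), 1 in the direction of lower reads (Smox) and 6 did not pass. A gene passed with an adjusted p under 0.05, and over all genes tested 13.7% passed as higher and 13.8% as lower, 27.6% together. Only Srm also differed by over 2-fold, a bound that 8.93% of all genes passed as higher and 8.54% as lower. The median log2 fold change, Rpl22-/- over Rpl22+/+, was 0.17 for the members and 0.07 for all genes. The libraries of the 2 genotypes did not overlap in CPM for Amd1, Srm, Sms, Oaz2, Smox and Paox, which is 6 of 10, against 46.1% of all genes. These counts belong to the comparison that the members were chosen on, and nothing is read from them. With Rpl22+/+ replicate 2 left out the counts were again 3 and 1, with Rpl22+/+ replicate 3 left out 0 and 0, with Rpl22+/+ replicate 1 or Rpl22-/- replicate 1 left out 1 and 0, and with Rpl22-/- replicate 3 left out 2 and 0.

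**Figure D1:**
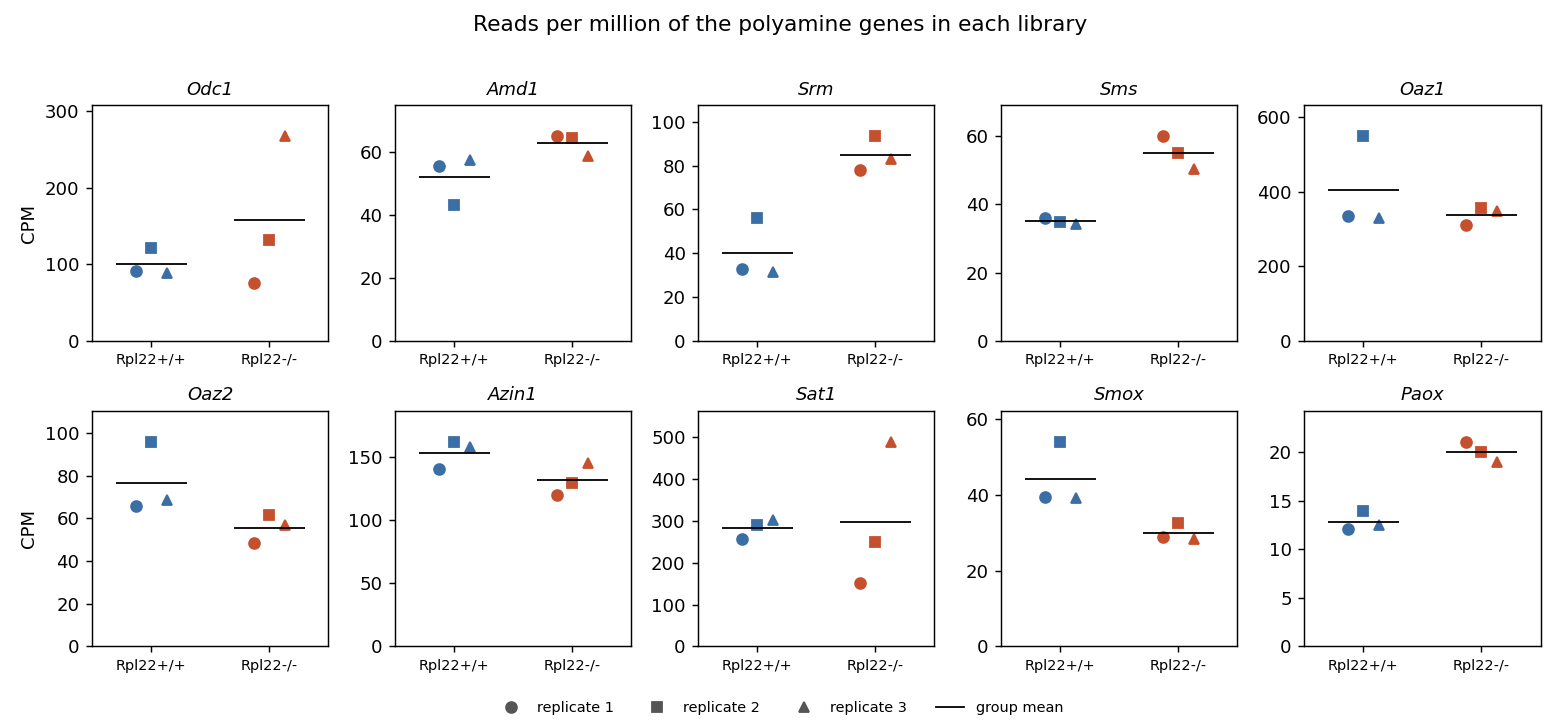
Level in CPM ( vertical axis from 0 in each panel) of the 10 polyamine genes in the 3 Rpl22+/+ libraries (blue) and the 3 Rpl22-/- libraries (red). Symbols mark the replicate and bars the group mean. Srm, Sms and Paox sit higher and Smox lower in every Rpl22-/- library, while Odc1 and Sat1 are spread widely among the Rpl22-/- libraries, from 75.3 to 268 and from 152 to 489 CPM.

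Measured as TPM, which is scaled for transcript length and so allows genes to be set side by side, Oaz1 had the highest mean at 525 to 708 TPM over the 6 libraries. Sat1 followed at 215 to 666 TPM, above Oaz1 in Rpl22-/- replicate 3, and Odc1 at 83.3 to 276 TPM, below Srm in Rpl22-/- replicate 1. Srm (36.4 to 99.1 TPM), Azin1 (59.4 to 86.2 TPM) and Oaz2 (43.8 to 64.1 TPM) came next, with ranges that overlapped. Sms (21.0 to 52.8 TPM), Smox (25.2 to 34.4 TPM) and Amd1 (14.7 to 31.8 TPM) overlapped as well, and Paox was lowest at 8.97 to 16.1 TPM. In each library of either genotype, Oaz1 was thus higher in TPM than Odc1, whose product its own product binds. These sums count all transcripts, and those annotated with a retained intron held 44.2% to 54.7% of the Odc1 TPM. On coding transcripts alone Odc1 averaged 37.9 TPM in Rpl22+/+, below Srm (38.3), Azin1 (50.6) and Oaz2 (49.4). In Rpl22-/- its coding transcript averaged 62.9 TPM, below Srm (88.6) and above Azin1 (40.0) and Oaz2 (39.3).

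Odc1 (chr12:17594795-17601506, + strand, GRCm39) encodes ornithine decarboxylase, the enzyme that commits ornithine to polyamines and a known target of Myc. It stood at 90.9, 122 and 88.8 CPM in Rpl22+/+ and at 75.3, 131 and 268 CPM in Rpl22-/-. The groups overlapped, with Rpl22-/- replicate 1 below and replicate 3 well above every Rpl22+/+ library. The fitted log2 fold change was 0.65 ± 0.44 (SE, n = 3 and 3). Without Rpl22-/- replicate 3 it was 0.04, so the size of the difference rested on that library.

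Myc, named here after its values were seen, followed another pattern. It stood at 30.3, 44.7 and 33.3 CPM in Rpl22+/+ and at 130, 128 and 117 CPM in Rpl22-/- (log2 fold change 1.79 ± 0.18, edgeR adjusted p = 0.000804). The 3 Rpl22-/- libraries were close to each other in Myc, whereas they spanned 75.3 to 268 CPM in Odc1. Immediate early genes, likewise chosen after their values were seen, were ordered among the Rpl22-/- libraries as Odc1 was. The estimated reads of these libraries rose in the same order (35828500, 99806050 and 102866127), and 3 libraries allow few orders. Fos stood at 607, 1842 and 2737 CPM in Rpl22-/- replicates 1, 2 and 3, Egr1 at 44.2, 157 and 272 CPM, Jun at 787, 2065 and 4746 CPM and Ier2 at 139.6, 320.3 and 420.4 CPM. In Rpl22+/+ the same genes ranged over 955 to 1757, 78.1 to 120, 532 to 924 and 273 to 460 CPM. None of the 4 passed between the genotypes, and Ier2 had a fitted value below 0 (-0.22) where the others were above 0. The part of these differences in the Odc1 values was not tested.

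Amd1 (chr10:40163454-40178184, - strand, GRCm39) encodes S-adenosylmethionine decarboxylase, which makes the aminopropyl donor for both synthases. It stood at 55.6, 43.3 and 57.4 CPM in Rpl22+/+ and at 65.0, 64.6 and 58.8 CPM in Rpl22-/-. The groups did not overlap, but the lowest Rpl22-/- library lay just above the highest Rpl22+/+ library, and the log2 fold change was 0.27 ± 0.15. Amd1 reads are the least certain of the set. The gene sum was 0.752 of the mean level the authors deposited for it, against 0.975 to 0.994 for the other 9 members. Part of its reads may lie on transcripts that could not be matched. The near-identical Amd2 (99.6% identity over 3204 aligned bases of the 2 main transcripts) can also share reads with it, and Amd2 held 174 reads in Rpl22+/+ and 225 in Rpl22-/-.

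Srm (chr4:148675960-148679450, + strand, GRCm39) encodes spermidine synthase. It stood at 32.7, 56.1 and 31.3 CPM in Rpl22+/+ and at 78.0, 93.4 and 82.9 CPM in Rpl22-/-. Every Rpl22-/- library was higher, and the log2 fold change of 1.08 ± 0.25 was the largest of the 10. It no longer passed without Rpl22+/+ replicate 1 (0.96), Rpl22+/+ replicate 3 (0.93), Rpl22-/- replicate 1 (1.14) or Rpl22-/- replicate 3 (1.10). On the length-scaled measure Srm was nearly constant within Rpl22-/- (97.2 to 99.1 TPM, against 36.4 to 50.4 TPM in Rpl22+/+). Srm lies on the chromosome of the deleted gene, 3.73 Mb from the start of Rpl22. Of 31 genes within 1 Mb of Srm with a mean of at least 50 reads, Srm itself not counted, 12 passed as higher and 1 as lower, with a median log2 fold change of 0.55. Of 781 such genes of chromosome 4, 34.1% passed as higher and 7.04% as lower, with a median of 0.44. Over chromosomes other than 4 and 9 the median lay between -0.04 and 0.12. How much of the Srm difference goes with its position was not tested.

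Sms (chrX:156226851-156275283, - strand, GRCm39) encodes spermine synthase, which turns spermidine into spermine. It was even within each genotype, at 35.9, 34.8 and 34.3 CPM in Rpl22+/+ and at 59.9, 55.1 and 50.3 CPM in Rpl22-/-. All Rpl22-/- libraries were higher, with a log2 fold change of 0.65 ± 0.12, and Sms no longer passed without Rpl22+/+ replicate 3 (0.64). The median over 375 genes of the X chromosome was -0.01. Most reads of Sms were assigned to Sms-204, a transcript annotated as a target of nonsense-mediated decay, the pathway that degrades RNA with an early stop codon. Sms-204 took 57.5% ± 7.7 of the reads of the gene in Rpl22+/+ and 60.5% ± 4.4 in Rpl22-/- (SD, n = 3), and its level went from 18.6, 23.1 and 18.6 CPM to 33.5, 35.7 and 30.6 CPM. The coding transcripts stood at 13.4, 11.1 and 11.9 CPM in Rpl22+/+ and at 16.0, 14.2 and 13.3 CPM in Rpl22-/-, so that the groups overlapped slightly there. Salmon divides reads between overlapping transcripts by estimation, and such splits are less certain than the gene sum.

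Oaz1 (chr10:80662516-80665124, + strand, GRCm39) and Oaz2 (chr9:65575283-65597582, + strand, GRCm39) encode antizymes. Their full-length protein is made only when the ribosome skips a base at the end of the first reading frame, which happens more often when polyamines are plentiful. The site is shown because the level of the RNA cannot report that step. These lines give it from the GENCODE vM21 transcripts, with the bases around the shift in capitals, once with the skipped base and once as the annotation writes the spliced main transcript without it.
Oaz1-205, bases 70 to 99: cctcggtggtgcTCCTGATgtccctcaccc
Oaz1-207, bases 264 to 292: cctcggtggtgcTCCGATgtccctcaccc

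Oaz1 stood at 334, 549 and 331 CPM in Rpl22+/+ and at 311, 356 and 347 CPM in Rpl22-/-. Only Rpl22+/+ replicate 2 was clearly apart, the groups overlapped, and the log2 fold change was -0.26 ± 0.23. Oaz2 stood at 65.5, 95.8 and 68.6 CPM in Rpl22+/+ and at 48.4, 61.5 and 57.0 CPM in Rpl22-/-. Every Rpl22-/- library was lower, with a log2 fold change of -0.46 ± 0.19, which did not pass. With the replicate number as a block it was -0.45 and passed, as it did with limma on log2(TPM + 1) (-0.35). Oaz2 lies on chromosome 9, where the median log2 fold change over 738 genes was 0.39, opposite in sign to its own. Processed copies of both antizyme genes are annotated elsewhere in the genome, so a part of these reads is uncertain.

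Azin1 (chr15:38487671-38519510, - strand, GRCm39) encodes antizyme inhibitor, an inactive relative of ornithine decarboxylase that frees the enzyme from antizyme. It stood at 140, 162 and 158 CPM in Rpl22+/+ and at 120, 129 and 145 CPM in Rpl22-/-. The groups overlapped slightly, and the log2 fold change was -0.22 ± 0.14. The members that act on the stability of ornithine decarboxylase (Oaz1, Oaz2 and Azin1) had fitted values below 0, but none passed in the main fit. Antizymes and Azin1 act in opposite ways, and no shared direction is read from these values. Azin2, a further antizyme inhibitor that is no member, is described with the other pathway genes and was higher in Rpl22-/-.

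Smox (chr2:131333416-131367842, + strand, GRCm39) encodes spermine oxidase, which converts spermine directly to spermidine. It stood at 39.5, 53.9 and 39.1 CPM in Rpl22+/+ and at 28.7, 32.5 and 28.4 CPM in Rpl22-/-. All Rpl22-/- libraries were lower, and the log2 fold change was -0.56 ± 0.17. It passed narrowly and no longer did so in 8 of 16 alternatives, all with the same direction. Paox (chr7:139695712-139717137, + strand, GRCm39) encodes the oxidase that acts on acetylated polyamines, the products of Sat1. It stood at 12.12, 14.01 and 12.47 CPM in Rpl22+/+ and at 21.09, 20.01 and 18.96 CPM in Rpl22-/-. Here every Rpl22-/- library was higher, with a log2 fold change of 0.64 ± 0.13, and Paox no longer passed without Rpl22+/+ replicate 1 (0.60), Rpl22+/+ replicate 3 (0.62) or Rpl22-/- replicate 1 (0.60), or with the effective length offset (0.56). The oxidases thus differed between the genotypes in opposite directions. Paox overlaps an antisense gene, Echs1, and the strand setting of the counting is not given in the sources used here.

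**Figure D2:**
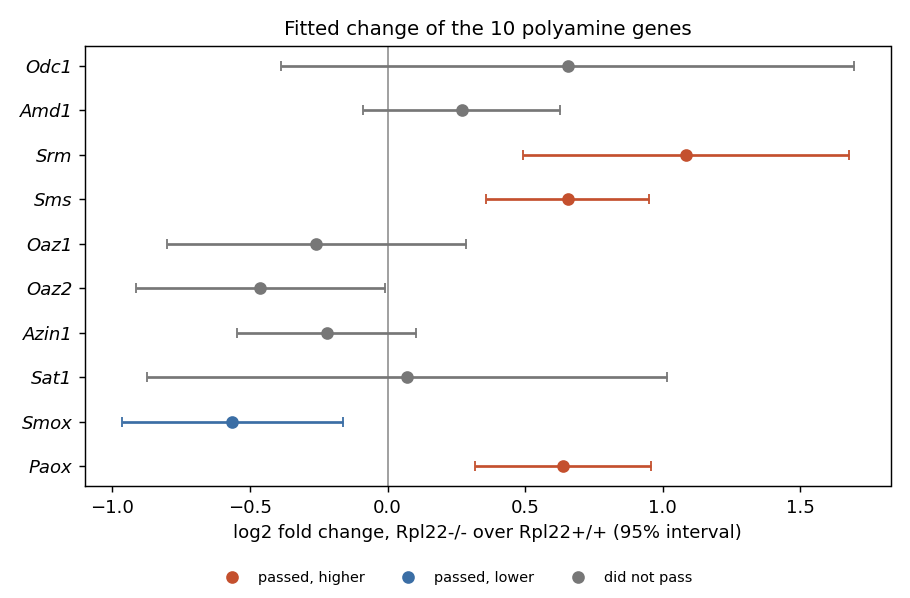
Fitted log2 fold change, Rpl22-/- over Rpl22+/+, of the 10 polyamine genes (horizontal axis) with 95% intervals from 3 libraries a genotype. Colors give which genes passed the test over all genes. The widest intervals belong to Odc1 (-0.39 to 1.69) and Sat1 (-0.87 to 1.01), the genes that vary most among the Rpl22-/- libraries.

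Sat1 (chrX:153996128-153999445, - strand, GRCm39) encodes spermidine/spermine acetyltransferase, the rate-limiting enzyme of breakdown. It stood at 256, 290 and 303 CPM in Rpl22+/+ and at 152, 250.6 and 489 CPM in Rpl22-/-. The Rpl22-/- libraries lay on either side of the Rpl22+/+ libraries, in the same order as for Odc1, and the log2 fold change was 0.07 ± 0.40. Its sign turned without Rpl22-/- replicate 3 (-0.49), with limma-voom (-0.12) and with the replicate block (-0.09). The gene sum hid a difference between its transcripts.

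Sat1 is known to be spliced in alternative ways. The coding form, Sat1-201, joins exon 3 to exon 4. In Sat1-207 a further exon of 110 bases stands between them, which brings a stop codon into frame and makes the RNA a target of nonsense-mediated decay. Low polyamine levels are known to favor its inclusion. The inserted exon is chrX:155215121-155215230 on the - strand of GRCm38, the build of GENCODE vM21. The junctions are shown because they are where the forms part. The line for Sat1-201 has the start of exon 4 in capitals, and the line for Sat1-207 has the stop codon, which follows 11 bases of the inserted exon, in capitals.
Sat1-201, bases 469 to 498: actggacccctgaagGACATAGCATTGTTG
Sat1-207, bases 469 to 497: actggacccctgaaggttacagtctcTAG

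The coding transcripts of Sat1 (Sat1-201 and Sat1-202) stood at 120, 174 and 133 CPM in Rpl22+/+ and at 56.2, 80.9 and 74.1 CPM in Rpl22-/-. Every Rpl22-/- library was lower, and the means were 142 ± 28.4 and 70.4 ± 12.8 CPM (SD, n = 3). The coding transcripts held 47.0%, 60.1% and 43.9% of the Sat1 reads in Rpl22+/+ and 37.0%, 32.3% and 15.1% in Rpl22-/-. The share was lower in each Rpl22-/- library, by 22.2 percentage points in the mean and by 15.7 points without Rpl22-/- replicate 3.

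The remainder lay mostly on transcripts annotated with a retained intron, at 115, 103 and 150 CPM in Rpl22+/+ and at 84.8, 152 and 335 CPM in Rpl22-/-. These levels overlapped between the genotypes, while their share of the gene did not (44.8%, 35.5% and 49.6% against 55.9%, 60.6% and 68.5%). Sat1-207, with the inserted exon, stood at 21.0, 12.6 and 19.7 CPM in Rpl22+/+ and at 10.8, 17.9 and 79.8 CPM in Rpl22-/-. It was high in Rpl22-/- replicate 3 alone, where it reached 16.3% of the gene. In the other 5 libraries it held 4.35% to 8.22%. The excess of Sat1 reads in Rpl22-/- replicate 3 thus lay on the retained-intron and decay forms.

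**Figure D3:**
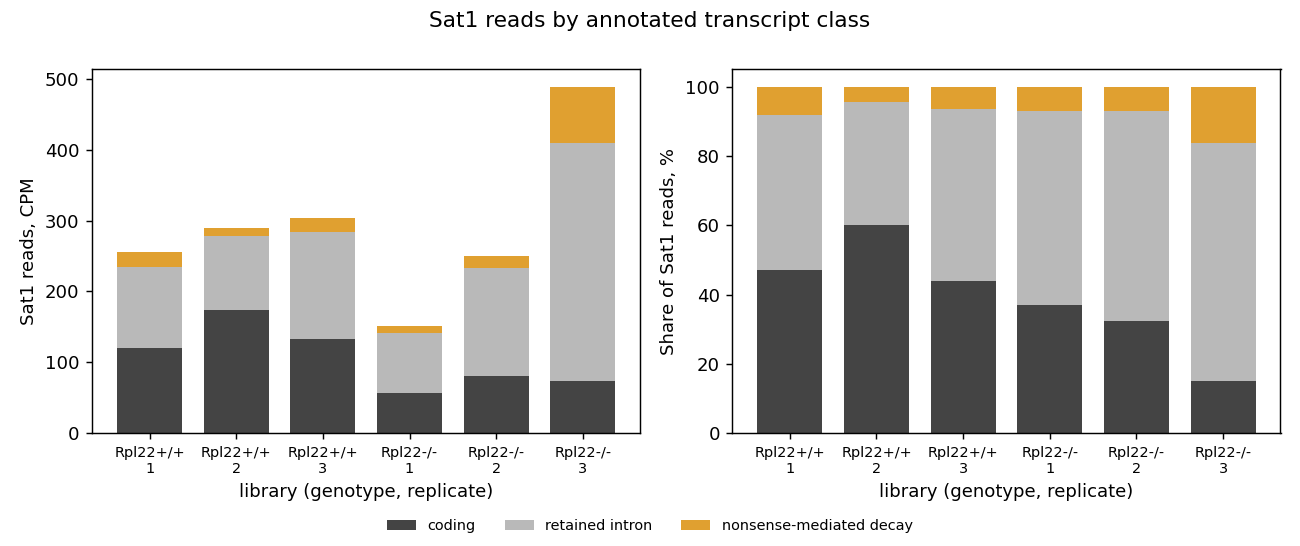
Sat1 reads in each library by annotated transcript class, in CPM (left axis) and as a percentage of the reads of the gene (right axis). Dark bars are the coding transcripts, which stand at 120 to 174 CPM in Rpl22+/+ and at 56.2 to 80.9 CPM in Rpl22-/-. The retained-intron class reaches 335 CPM in Rpl22-/- replicate 3.

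For comparison, the share of reads on retained-intron and decay transcripts was taken in 4240 genes with at least 1000 reads in every library and such a transcript. The median difference, Rpl22-/- minus Rpl22+/+, was 0.596 percentage points. All Rpl22-/- libraries lay above all Rpl22+/+ libraries in 13.3% of these genes and below them in 2.81%. Sat1 (22.2 points) and Sms (62.7%, 68.1% and 65.3% against 73.2%, 74.1% and 73.6%, a difference of 8.29 points) were among those above. The other members with enough reads differed by -0.481 to 5.35 points, and Odc1 overlapped between the genotypes (37.7%, 30.1% and 37.2% against 33.7%, 40.2% and 35.2%). The median share over genes itself differed between libraries, from 2.61% in Rpl22+/+ replicate 2 to 6.69% in Rpl22-/- replicate 1, and its part in the Sat1 values was not tested.

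Ratios of members within a library do not depend on scaling between libraries. Odc1 over the sum of Oaz1 and Oaz2, in TPM, was 0.178, 0.126 and 0.173 in Rpl22+/+ and 0.146, 0.248 and 0.460 in Rpl22-/-. Odc1 over Azin1 was 1.32, 1.47 and 1.17 in Rpl22+/+ and 1.34, 2.40 and 3.60 in Rpl22-/-. In CPM it was 0.647, 0.753 and 0.564 against 0.628, 1.02 and 1.85, so whether it exceeds 1 depends on the measure. The ratios count all transcripts, with the retained-intron forms of Odc1 among them. For each of these ratios Rpl22-/- replicate 1 lay among the Rpl22+/+ libraries and the other Rpl22-/- libraries lay above them.

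The TPM of Odc1, Amd1, Srm and Sms together over that of Sat1, Smox and Paox together was 0.511, 0.513 and 0.419 in Rpl22+/+ and 1.03, 0.849 and 0.627 in Rpl22-/-. The groups did not overlap, although the order among the Rpl22-/- libraries was the reverse of that for Odc1 over antizymes. Without Rpl22-/- replicate 3 the mean difference in the log2 ratio went from 0.77 to 0.96. This sum rests on Sat1 for most of its denominator, and Sat1, like Odc1 and Sms, here counts all its transcripts. In Rpl22-/- Sat1 stood at 215, 321 and 666 TPM, of which its coding transcripts held 77.5, 98.5 and 99.1 TPM. The high Sat1 sum in Rpl22-/- replicate 3 thus lay mostly on other transcripts. The order among the libraries was not taken on coding transcripts alone. Srm over Sms was 1.39, 2.40 and 1.42 in Rpl22+/+ and 1.85, 2.44 and 2.40 in Rpl22-/-, and overlapped between the genotypes.

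**Figure D4:**
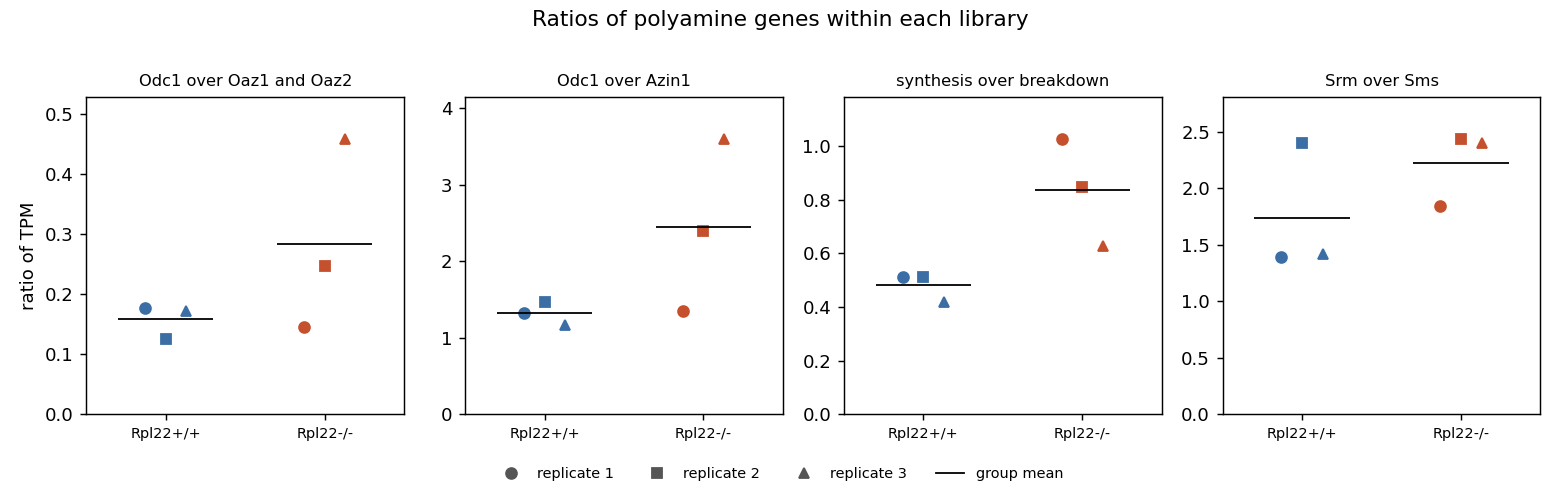
Ratios of TPM between polyamine genes within each library (vertical axes from 0), for 3 Rpl22+/+ libraries (blue) and 3 Rpl22-/- libraries (red), with the replicate as the symbol and the group mean as a bar. Synthesis is Odc1, Amd1, Srm and Sms, and breakdown is Sat1, Smox and Paox. Only the ratio of synthesis over breakdown separates the genotypes, at 0.419 to 0.513 against 0.627 to 1.03.

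The E-box CACGTG, the sequence that Myc binds together with Max, was searched in the promoter windows of RefSeq (GRCm38.p6), which run from 250 bases before to 50 bases after a start site. The motif reads the same on both strands. Of the 8 members with a window, Sms held a match, starting 196 bases before a start site in 1 of its 2 windows, and 7 held none. Over 27025 genes with a window 8.09% held the motif. Srm and Azin1 had no window in the table. A match is only a match of letters, and these windows leave out the first introns, where further E-boxes of this pathway are known.

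Beyond the members, 39 genes that feed, salvage, move or use polyamines were listed, also with earlier results of these data known, and their p-values come from the fit across all genes. Of the 30 with enough reads, 2 rose and 7 fell in Rpl22-/- and 21 did not pass, with a median log2 fold change of -0.08. Over all genes 13.7% passed as higher and 13.8% as lower, and nothing particular to the lists is read from their counts. With the replicate block 3 rose and 7 fell.

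Among the 4 relatives of members that were tested, Azin2 rose, Aoc1 fell and 2 did not pass. Azin2, a second antizyme inhibitor, stood at 1.97, 2.47 and 1.82 CPM in Rpl22+/+ and at 10.96, 10.77 and 10.85 CPM in Rpl22-/-. Every Rpl22-/- library was several times higher (log2 fold change 2.38 ± 0.19, edgeR adjusted p = 0.000332), while Azin1 had a fitted value below 0. In TPM, Azin2 averaged 2.08 ± 0.09 in Rpl22+/+ and 11.9 ± 0.8 in Rpl22-/- (SD, n = 3), below Azin1 at 77.8 ± 10.4 and 66.1 ± 9.4. Like Srm, it lies on chromosome 4. Aoc1, an amine oxidase that degrades putrescine, had 35, 40 and 23 reads in Rpl22+/+ and 2, 11 and 14 in Rpl22-/- (log2 fold change -2.09 ± 0.46, edgeR adjusted p = 0.0158), and did not pass without Rpl22+/+ replicate 1 or Rpl22-/- replicate 2 (adjusted p = 0.0542 and 0.0522) or with limma on log2(TPM + 1) (-0.18, adjusted p = 0.0923), a scale that understates changes of such low genes.

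Ornithine comes from arginine, and of 7 tested genes of this supply 2 fell and 5 did not pass. Slc7a2, a transporter of cationic amino acids, had 49, 67 and 59 reads against 5, 31 and 14 (log2 fold change -2.01 ± 0.44, edgeR adjusted p = 0.0156), and did not pass without Rpl22+/+ replicate 3, Rpl22-/- replicate 1 or Rpl22-/- replicate 3 (adjusted p = 0.0538, 0.0526 and 0.0612) or with limma on log2(TPM + 1) (-0.14, adjusted p = 0.152). Ass1, which makes the precursor of arginine and had the highest mean TPM of this list, stood at 74.0, 151 and 85.6 against 52.0, 76.4 and 75.1 CPM and did not pass (edgeR adjusted p = 0.190).

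Of 9 genes of the methionine cycle and the salvage of methylthioadenosine, which provide the aminopropyl donor and recycle its remainder, 1 rose, 1 fell and 7 did not pass. Ahcy, which clears S-adenosylhomocysteine, stood at 27.5, 50.6 and 28.4 CPM in Rpl22+/+ and at 70.4, 93.2 and 76.1 CPM in Rpl22-/- (log2 fold change 1.17 ± 0.27, edgeR adjusted p = 0.0198). Every Rpl22-/- library was higher. Ahcy did not pass without Rpl22+/+ replicate 1, Rpl22+/+ replicate 3 or Rpl22-/- replicate 3 (adjusted p = 0.0619, 0.0743 and 0.0591). Got1, an aspartate aminotransferase that can close the salvage pathway, stood at 32.5, 42.3 and 31.9 CPM in Rpl22+/+ and at 12.99, 16.51 and 16.90 CPM in Rpl22-/- (log2 fold change -1.20 ± 0.18, edgeR adjusted p = 0.00399). Mat2a, which makes S-adenosylmethionine and had the highest mean TPM of the list, stood at 128, 141 and 133 against 154, 139 and 252 CPM and did not pass (edgeR adjusted p = 0.230). It too was highest in Rpl22-/- replicate 3. Adi1, a salvage enzyme named after its values were seen, missed the threshold (log2 fold change 0.66 ± 0.20, edgeR adjusted p = 0.0540) and passed with the replicate block (adjusted p = 0.0246) and in 11 of 16 alternatives in all.

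Of 6 tested genes of polyamine transport, 2 fell and 4 did not pass. Atp13a2, a lysosomal polyamine exporter, stood at 91.6, 155 and 98.1 CPM in Rpl22+/+ and at 54.1, 72.5 and 59.2 CPM in Rpl22-/- (log2 fold change -0.89 ± 0.24, edgeR adjusted p = 0.0332). Every Rpl22-/- library was lower, but Atp13a2 did not pass without Rpl22+/+ replicate 3, Rpl22-/- replicate 1 or Rpl22-/- replicate 3 (adjusted p = 0.0604, 0.116 and 0.114). It also lies on chromosome 4, with a value opposite in sign to the median there. Slc22a3, an organic cation transporter, was near the limit of detection, with 34, 32 and 31 reads in Rpl22+/+ and 0, 5 and 2 in Rpl22-/- (log2 fold change -3.94 ± 0.65, edgeR adjusted p = 0.00562), and did not pass with limma on log2(TPM + 1) (-0.20, adjusted p = 0.0600). Slc3a2, the gene of this list with the highest mean TPM, overlapped between the genotypes (70.6, 120 and 83.6 against 61.7, 84.8 and 114 CPM), and its fitted value of -0.07 ± 0.28 turned to 0.08 without the composition factor.

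Spermidine is the source of hypusine, the modified residue of the translation factor eIF5A. Of 4 tested genes of that pathway 1 fell and 3 did not pass. Eif5a was abundant at 589, 1062 and 641 CPM in Rpl22+/+ and at 802, 935 and 931 CPM in Rpl22-/- (log2 fold change 0.22 ± 0.25, edgeR adjusted p = 0.579). Without Rpl22+/+ replicate 2, the highest library of all, it was 0.49 and passed (adjusted p = 0.0297). Eif5a2, a second eIF5A gene, stood at 3.99, 3.30 and 3.47 CPM in Rpl22+/+ and at 1.18, 1.48 and 1.67 CPM in Rpl22-/- (log2 fold change -1.31 ± 0.23, edgeR adjusted p = 0.00681). The enzymes that make hypusine, Dhps and Dohh, did not pass.

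**Figure D5:**
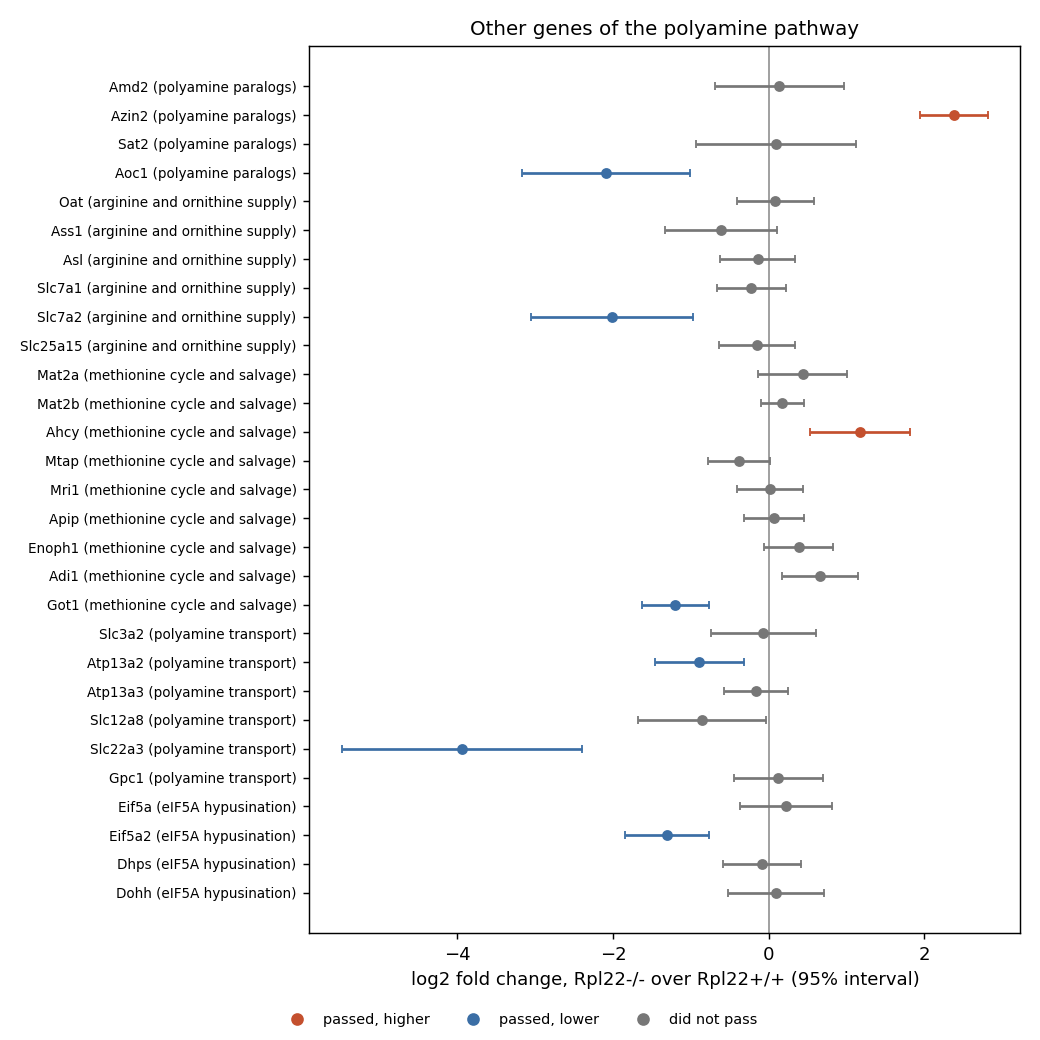
Fitted log2 fold change, Rpl22-/- over Rpl22+/+, of 29 of the 30 tested pathway genes that are no member (horizontal axis), with 95% intervals and the list of each gene in brackets. Red marks genes that rose, blue those that fell and grey those that did not pass. Azin2 (2.38) and Ahcy (1.17) stand to the right, and Slc22a3 (-3.94) is farthest to the left with a wide interval.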

How the data were processed

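Poly(A) RNA of 6 libraries was sequenced as paired ends with a stranded kit. Per the labels, the authors used Trimmomatic for trimming, Salmon for transcript quantification and the build GRCm39. Versions and the transcript set are not given in the sources used here. The authors deposited estimated counts and TPM for each transcript and library, along with the effective length. From a further table the deposited base mean signal and gene positions (GRCm39) were used. Its columns of the authors' own comparison (fold changes, standard errors, test statistics, p-values) were not used.

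Estimated counts and TPM were summed to genes by the transcript identifiers of GENCODE vM21, without versions. This matched 136036 of 276623 transcripts (49.2%), which carried 98.0% to 98.1% of the reads, and counts were rounded. Genes that passed filterByExpr (16656) were tested in R 4.3.3 by quasi-likelihood with edgeR 4.0.16, using TMM scaling and genotype as the only term, and p-values were adjusted by Benjamini-Hochberg over all of them. CPM uses TMM-scaled library sizes. Members and lists were chosen with earlier results of these data known. Besides the members, the genes named were the passing genes of each list, up to 4 by p, and its gene of highest mean TPM, and any other is said to be chosen after its values were seen. A passing pathway gene is counted but not reported here. Libraries of a genotype differed by more than sampling noise in every pair.

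The labels number the replicates 1 to 3 in each genotype. Deviations from the group means correlated at 0.570, 0.715 and 0.129 for equal numbers (13202 genes averaging 50 reads or more) and at 0.479, 0.634 and 0.0975 over all 16656 genes. Rpl22+/+ replicate 3 correlated more with Rpl22-/- replicate 1 (0.430 and 0.357) than with its own number. Whether the numbers pair the libraries was therefore not settled, and the fit with a replicate block is given wherever it changes a call. Alternatives were DESeq2 1.42.0, limma 3.58.1 (voom, and log2(TPM + 1) or log2(TPM + 0.1)), other scalings and filters, an offset for effective length, and each library left out. Figures were drawn with matplotlib 3.10.9.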

Additional observations from a re-analysis of the deposited data

How the results depend on the processing

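Of all genes tested, 2288 passed as higher and 2306 as lower in Rpl22-/-. Without a composition factor 3543 passed as higher, the median log2 fold change over every gene tested went from 0.07 to 0.19, and the share of passing genes that were higher went from 49.8% to 61.5%. Counts of genes that also differed by over 2-fold were 1488 and 1423, against 898 and 696 with limma on log2(TPM + 1). With each library left out in turn, 1201 to 3556 genes passed as higher and 1411 to 3267 as lower.

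Of the polyamine members, 3 passed as higher in each setting that kept all libraries, except 2 with the effective length offset. As lower, 1 passed, against 0 with no filter on low counts, limma-voom, limma on log2(TPM + 0.1) or the effective length offset, and 2 with limma on log2(TPM + 1) or the replicate block. Leaving out a library gave 0 to 3 higher and 0 to 1 lower. Of the other pathway genes 2 passed as higher, against 5 without a composition factor and 4 with limma on either TPM scale. Every other setting that kept all libraries gave 3. As lower 7 passed, against 4 with a mean of at least 50 reads or limma on log2(TPM + 1). Leaving out a library gave 1 to 5 higher and 5 to 8 lower. Sat1 (0.07) turned in sign with limma-voom (-0.125), with the replicate block (-0.093) and without Rpl22-/- replicate 3, its values ranging from -0.492 to 0.386 with a library left out. Slc3a2 (-0.07) turned without a composition factor (0.082), with limma on either TPM scale (0.003) and without Rpl22+/+ replicate 2 or Rpl22-/- replicate 1, its values ranging from -0.317 to 0.134 with a library left out. The replicate block put Oaz2 and Adi1 past the threshold and changed no other call among the members and pathway genes. With CPM in place of TPM the ratios moved by less than the spread between replicates, as did the Sat1 coding share from TPM (-22.3 points). Leaving out a library cannot move a group mean past that spread, so those settings decide nothing for the ratios or the share. The settings for the share were added after the data were seen. Where a value changed, the cause was not tested. Depth limits Slc22a3, Aoc1 and Slc7a2, which hold under 100 reads a library.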
